A study of Homo sapiens with 6 samples.

Results

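RAB GTPases were followed at the mRNA level in HO-1-N-1, a human oral squamous cell carcinoma line, after knockdown of the RNA-binding protein Sam68. Members were all genes of the deposited expression table named RAB, then digits, then at most 1 letter and 1 digit, leaving out pseudogene names ending in P and digits. This gave 63 of the 21462 genes in the table. Cells of the line received either a control siRNA (libraries 1, 3 and 5) or an siRNA against Sam68 (libraries 1, 2 and 3), both with the lipid reagent HilyMax, and poly(A) RNA was sequenced. The siRNA sequences and harvest time were not given in the sources used here. Separate cultures are not named for the libraries of a group, so the p-values reflect the spread among these libraries alone, possibly a technical one.

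RAB proteins are small GTPases that give membranes of the secretory and endocytic pathways their identity. An exchange factor loads a RAB with GTP on its membrane, the GTP-bound form recruits effectors such as motors and tethers, and a GTPase-activating protein ends the cycle. The inactive protein carries lipid anchors, which were attached with the help of an escort protein, and is kept soluble by a GDP dissociation inhibitor (GDI). In squamous and other epithelia, RABs are known for sorting adhesion and growth factor receptors through recycling endosomes and for directing secretion.

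The 6 libraries held between 16099488 and 17336651 counts. KHDRBS1, the gene for Sam68, stood at 227, 205 and 184 CPM (counts scaled to a common library size) in controls 1, 3 and 5 and at 26.4, 30.98 and 28.8 CPM in Sam68 siRNA libraries 1, 2 and 3. Its log2 fold change was -2.84 (SE 0.09, n = 3 each, edgeR quasi-likelihood adjusted p = 1.56e-08). Control 5 stood apart: mitochondrial transcripts took 2.27% of its counts, against 0.158% to 0.671% in the others. Its root mean square log2 deviation from its group was 0.206 over all tested genes, against 0.121 to 0.161 in the other 5 libraries. Over the tested RAB genes the same deviation, taken on CPM, was 0.0973 in control 5 and 0.101 to 0.125 in the others. By this measure control 5 did not stand apart for them, but its summed RAB level in TPM was the lowest of the 6 libraries (3598). All 10 squamous epithelial markers reached 1 TPM (a level per transcript length), summing to 12835 to 13296 TPM in the controls and 13499 to 14092 TPM after knockdown. Fibroblast markers (3 of 10 at 1 TPM or more) summed to 17.6 to 23.8 TPM in the controls and 9.57 to 13.1 TPM after knockdown, with DPT, PDGFRA and POSTN at 0 counts. Leukocyte markers (2 of 10) summed to 48.3 to 61.9 and 63.5 to 68.7 TPM, and neural and melanocytic markers (1 of 10) to 6.18 to 7.76 and 4.80 to 5.45 TPM. Endothelial markers (1 of 10) summed to 1.55 to 2.02 and 1.18 to 1.62 TPM. The groups overlapped for the endothelial sum and not for the other 4, and the part of these shifts in the results on RAB genes was not tested. CD68 made up most of the leukocyte sum, while CD2, MS4A1, LST1 and TYROBP had 0 counts.

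The cells expressed most of the RAB family. Mean control levels reached 1 TPM for 53 of the 63 members, 10 TPM for 39 and 100 TPM for 14. RAB1B, which acts in transport from endoplasmic reticulum to Golgi, led with 514, 545 and 501 TPM in controls 1, 3 and 5, mean 520 ± 22.6 TPM (SD, n = 3), and made up 13.8% of the summed control TPM of the family. Its controls lay above all others. Next came the late endosomal RAB7A at 259 ± 12.03 TPM, RAB38 of lysosome-related organelles at 249 ± 23.3, the early endosomal RAB5C at 239 ± 25.3 and the Golgi RAB6A at 201 ± 20.3 TPM. RAB34, the epithelial RAB25 of recycling endosomes, RAB10, RAB13 and RAB1A completed the first 10, at 179, 171, 163, 151 and 137 TPM. From RAB7A down to RAB10 each gene overlapped in its 3 controls with the next. The first 10 genes held 60.1% of the family's TPM.

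**Figure D1:**
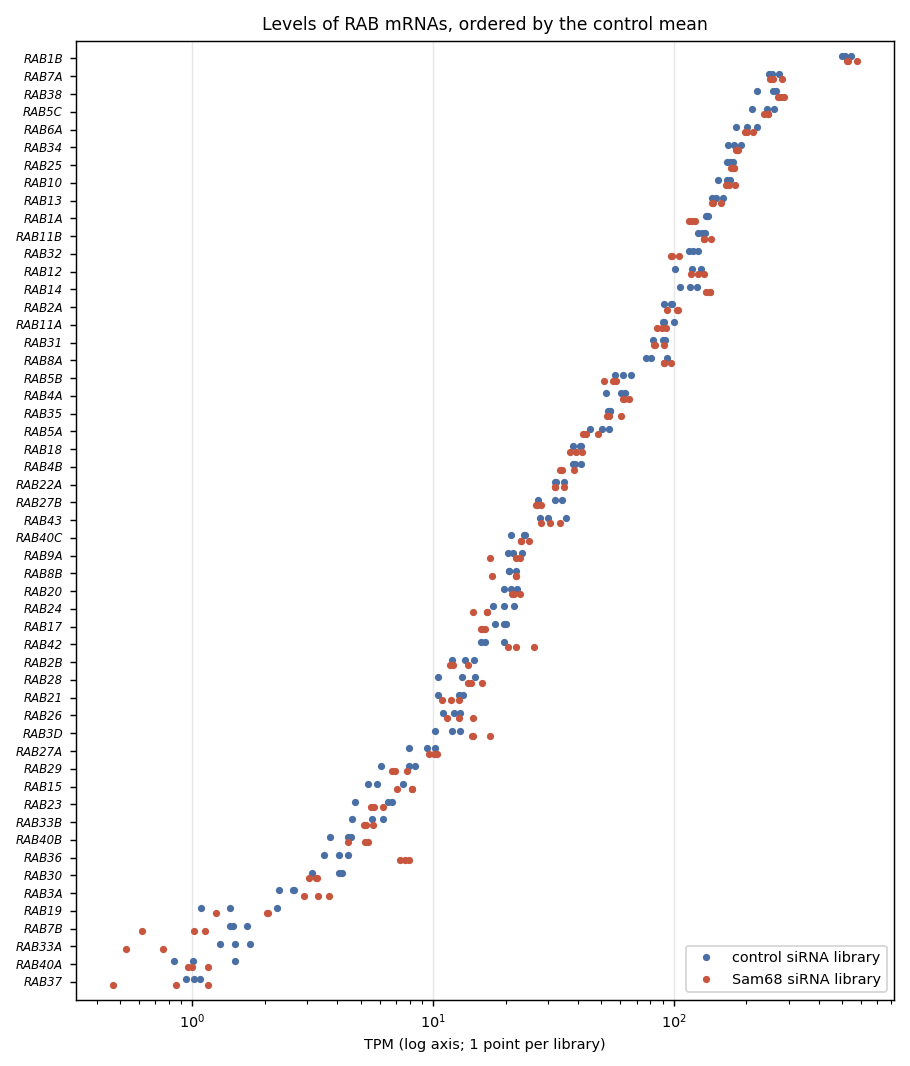
Levels of the 53 RAB genes with a mean control level of at least 1 TPM, on a log axis, with 1 point per library (blue, control siRNA; red, Sam68 siRNA; the 0 of RAB33A in Sam68 siRNA library 1 cannot be drawn). RAB1B stands highest at 501 to 578 TPM, and the groups lie side by side for most genes.

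A few members were at or near 0. RAB3C, RAB39A and RAB39B had 0 counts in every library. RAB6C, RAB6D, RAB9B, RAB41 and RAB44 had between 0 and 4 counts per library. RAB33A, a RAB of lymphoid and neural cells, had 9, 8 and 7 counts in controls 1, 3 and 5, and after knockdown 0, 3 and 4. These groups did not overlap, but all 9 of these genes lay under the filter on low counts and were not tested.

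The summed level of the family differed by less than the spread of the controls. Summed over the family, TPM was 3781, 3946 and 3598 in controls 1, 3 and 5 and 3895, 3803 and 3871 in Sam68 siRNA libraries 1, 2 and 3. Means were 3775 ± 174 and 3856 ± 47.6 TPM (SD, n = 3 each), and the groups overlapped.

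Few individual members changed. Of the 54 tested, 4 rose, 2 fell and 48 were not called, at a Benjamini-Hochberg adjusted p below 0.05 by edgeR's quasi-likelihood test over 12351 genes. The share called was 11.1%, against 19.1% of all tested genes. Among all tested genes 9.33% rose and 9.76% fell. RAB36, RAB14, RAB3D and RAB42 were the 4 that rose, and RAB1A and RAB32 the 2 that fell. Groups did not overlap for 13 of the 54 members (24.1%), against 38% of all tested genes. The median log2 fold change was 0.02 for the members and 0.00 (-0.0048) for all tested genes, and the median size regardless of sign was 0.103 and 0.151. The tested members were no worse expressed than the rest, with a median control level of 27.1 TPM against 21.4 TPM for all tested genes.

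The intervals of most members not called were narrow. In 38 of the 48 the 95% interval of the log2 fold change lay between -0.5 and 0.5. The other 10 were RAB7B, RAB24, RAB15, RAB40B, RAB3A, RAB3B, RAB37, RAB6B, RAB19 and RAB40A. The widest interval was that of RAB6B, a mainly neuronal relative of RAB6A with 47 counts in all, from -1.71 to 0.76.

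**Figure D2:**
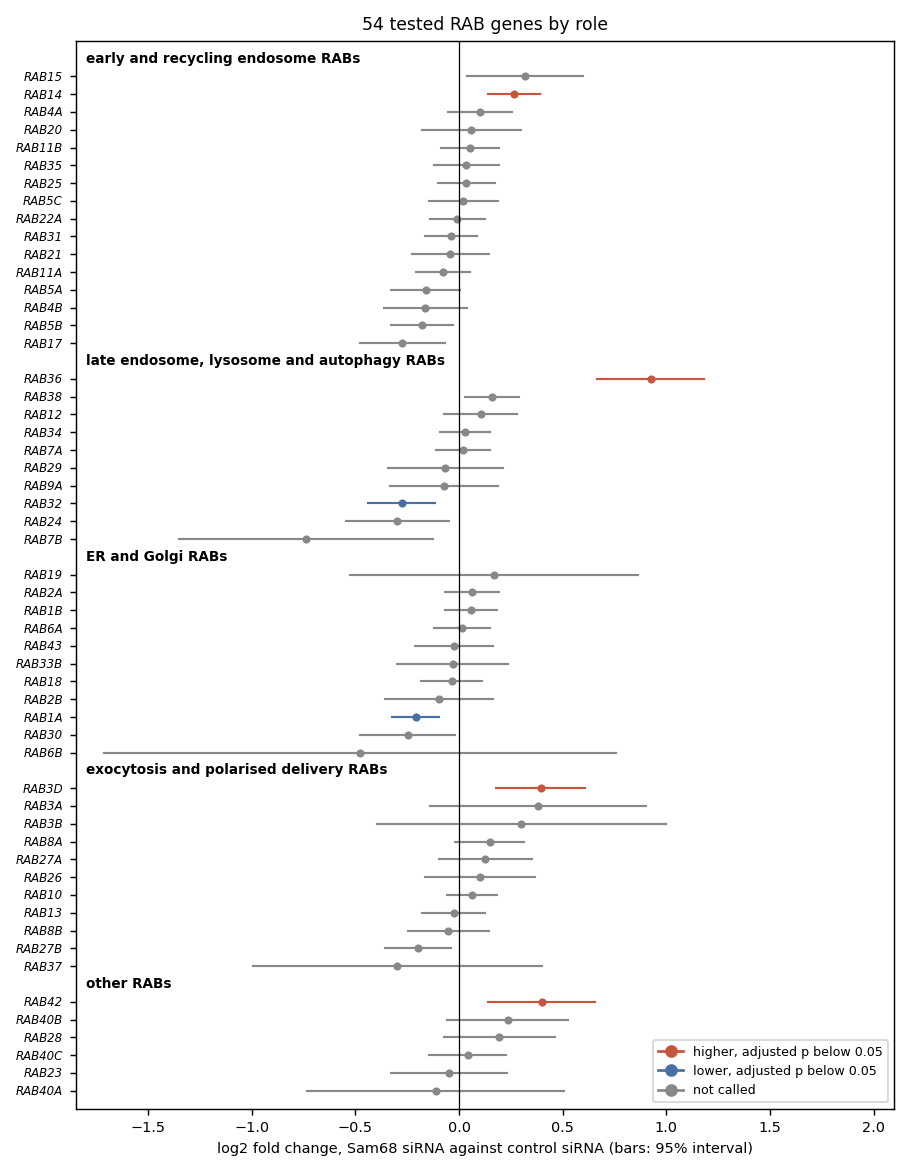
Log2 fold changes of the 54 tested RAB genes (points) with 95% intervals (bars), by role, Sam68 siRNA against control siRNA, n = 3 each. RAB36 stands alone at 0.93, with an interval of 0.67 to 1.18, and most other genes lie near 0.

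The number of calls depended on the libraries included, over all genes as in the family. The groups of the 6 called members did not overlap, so leaving out 1 library could hardly reverse their direction, and only sizes are informative. Without Sam68 siRNA replicate 2, RAB36 was the 1 member called, and without replicate 3 RAB36 and RAB42 were. In those fits 8.9% and 9.56% of all tested genes were called. Without control 5, 4 members rose and 4 fell, RAB27B and RAB30 joining the 6, with 21.4% of all tested genes called. With any 1 library left out, log2 fold changes stayed at 0.87 to 0.99 for RAB36, 0.24 to 0.30 for RAB14, 0.31 to 0.45 for RAB3D and 0.30 to 0.48 for RAB42. They stayed at -0.23 to -0.18 for RAB1A and -0.32 to -0.25 for RAB32. An exact two-sided permutation test of 3 against 3 libraries cannot go below p = 0.1, which was its value for each of the 6 called members.

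RAB36 had the largest log2 fold change of the 54 tested members. It is a relative of RAB34 and is known to bind the lysosomal effector RILP. Its level was 6.10, 5.57 and 5.17 CPM in controls 1, 3 and 5 and 10.6, 10.4 and 11.02 CPM in Sam68 siRNA libraries 1, 2 and 3. Every knockdown library lay above every control, with little scatter inside either group. The mean rose from 5.61 ± 0.469 to 10.7 ± 0.315 CPM, a 1.90-fold level (log2 fold change 0.93, SE 0.12, edgeR adjusted p = 0.000442). It was called under all 16 alternatives run, at log2 fold changes of 0.79 to 0.99. The gene (ENSG00000100228) lies on chromosome 22, 23145326 to 23164350, plus strand of hg38, overlaps no other gene of the table and had 817 counts over the 6 libraries.

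RAB34, its closest relative in the family, did not follow. RAB34 is known for lysosome positioning and for building the primary cilium. It stood at 132, 122 and 124 CPM in the controls and 128, 131 and 126 CPM after knockdown (log2 fold change 0.03, interval -0.09 to 0.15). Per length, RAB34 mRNA exceeded RAB36 mRNA 44.9-fold in the controls and 24.0-fold after knockdown. The log2 ratio was 5.44, 5.44 and 5.58 in the controls and 4.598, 4.65 and 4.51 after knockdown. The summed level of the pair was 183 ± 11.8 and 191 ± 2.15 TPM (SD, n = 3 each), with overlapping groups.

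**Figure D3:**
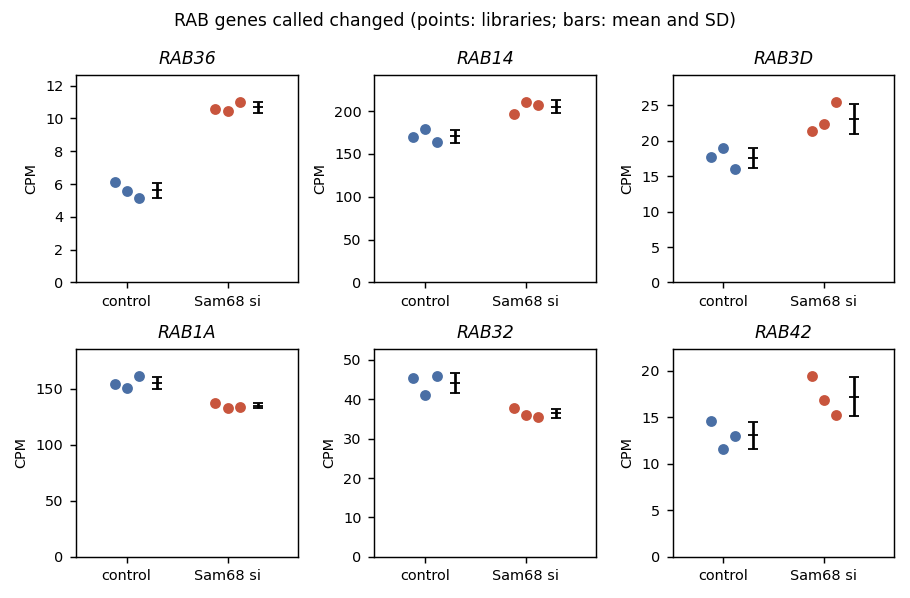
Levels of the 6 RAB genes called changed, in CPM on axes that start at 0. Points are libraries and the bars beside them the mean and SD (n = 3), and RAB36 goes from 5.61 to 10.7 CPM, and the other 5 genes change less.

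Of 16 early and recycling endosome RABs tested, 1 rose, 0 fell and 15 were not called (6.25% called, against 19.1% of all tested genes), with a median log2 fold change of 0.01. The gene that rose was RAB14, which sorts cargo between the trans-Golgi network and endosomes. It stood at 170, 178 and 164 CPM in controls 1, 3 and 5 and at 196, 211 and 207 CPM in Sam68 siRNA libraries 1, 2 and 3, each above every control. Its mean rose from 171 ± 7.5 to 205 ± 7.56 CPM (1.201-fold, log2 fold change 0.26, SE 0.06, edgeR adjusted p = 0.00895). The call was lost without Sam68 siRNA replicate 2 or 3 (edgeR adjusted p = 0.0568 and 0.0505, at log2 fold changes of 0.24 and 0.25), and the adjusted p over all alternatives was 0.0016 to 0.124. RAB14 overlaps GSN on the other strand, which had more counts, but shares no exon base with it.

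Among the other recycling genes, RAB17, known from apical recycling in epithelia, was lower by 0.27 in log2 without passing the test (edgeR adjusted p = 0.0626). Its levels were 13.9, 13.5 and 13.3 CPM in the controls and 11.3, 11.2 and 11.1 CPM after knockdown, so the groups did not overlap. The RAB11 subfamily that drives recycling to the surface showed log2 fold changes of -0.08 for RAB11A, 0.05 for RAB11B and 0.04 for RAB25, with intervals inside -0.5 to 0.5. The early endosomal RAB5A, RAB5B and RAB5C stood at -0.16, -0.18 and 0.02. RAB4A and RAB4B of fast recycling stood at 0.10 and -0.16, RAB15 at 0.32, RAB20 at 0.06, RAB35 at 0.04, RAB22A at -0.01, RAB31 at -0.04 and RAB21 at -0.04. Without control 1, RAB5B was called lower (log2 fold change -0.24), and without control 3, RAB15 was called higher (0.45).

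RAB14 was also the member with the most matches in its 3′ untranslated region (UTR) to a heptamer, GCAGTAC, that earlier work on these data had singled out among genes that rose. The family had been part of that search, so these matches are a description. GCAGTAC lay in the 3′ UTR of 5 of the 54 tested members (9.26%), against 4.68% of 11954 tested genes whose 3′ UTR had 50 bases or more. The 3′ UTRs of these 5 were long, with a median of 3259 bases against 1650 for the other 49. RAB14 held 2 matches, at chr9:121181337-121181343 and chr9:121178916-121178922, both on the minus strand in exon 8 and 53 and 2474 bases after the stop codon. RAB18, RAB22A and RAB27A held 1 each, at chr10:27542111-27542117 (exon 7), chr20:58365181-58365187 (exon 7) and chr15:55203351-55203357 (exon 6). The matches are shown with 10 bases on either side, in the sense of the mRNA from GENCODE 29 transcripts on GRCh38, with the heptamer in capitals.
RAB14, first: tctgttggaaGCAGTACtttttactgc
RAB14, second: cagacaccggGCAGTACactttggaaa
RAB18: ccagcctgagGCAGTACcagggtgaga
RAB22A: gcttttgaatGCAGTACtgtggaggaa
RAB27A: agacttcagtGCAGTACaacataattt

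RAB14 was the 1 of the 5 that rose and 0 fell, while of all 560 tested genes with the match 30.2% rose and 5% fell. The log2 fold changes were -0.04 for RAB18, -0.01 for RAB22A, 0.13 for RAB27A and 0.06 for RAB2A, the fifth holder, none of them called. RAB36, RAB3D and RAB42 held no match in the 3′ UTR or coding sequence. In coding sequence GCAGTAC lay in RAB15, with 2 matches and a log2 fold change of 0.32, and in RAB43 with 1 match and -0.02, neither called.

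The second such heptamer, ACTGATT, was singled out among genes that fell. It lay in the 3′ UTR of 12 of the 54 tested members (22.2%), against 13.8% of all tested genes searched. The 3′ UTRs of these 12 were long, with a median of 3347.5 bases against 1506 for the other 42. Among all tested genes without the match the median was 953 bases, and the part of length in the shares was not tested. Of the 12, 0 rose and 0 fell by edgeR, while of all 1646 tested genes with the match 6.93% rose and 15.1% fell. Their median log2 fold change was -0.03, against 0.03 for the other 42, and RAB1A and RAB32, which fell, held no match. RAB13, RAB20, RAB22A, RAB23, RAB2A, RAB31, RAB33B and RAB35 held it at log2 fold changes between -0.05 and 0.06. RAB31, with 2 matches, stood at -0.04. The 4 holders with the lowest fold changes, RAB7B at -0.74, RAB30 at -0.25, RAB27B at -0.20 and RAB5B at -0.18, are shown in the same way. Their matches lie at chr1:205978497-205978503, chr11:82979947-82979953, chr18:54895074-54895080 and chr12:55996266-55996272.
RAB7B: cagaccggccACTGATTggagtctggt
RAB30: gttagattggACTGATTtagttgcaaa
RAB27B: tgtaagagatACTGATTgtatctgaaa
RAB5B: cttcacttaaACTGATTaaaattgcag

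Among late endosome, lysosome and autophagy RABs, 1 of 10 tested rose (RAB36), 1 fell (RAB32) and 8 were not called, with a median log2 fold change of -0.02. The share called, 20%, was near the 19.1% of all tested genes. Groups did not overlap for 5 of the 10, against 38% of all tested genes. RAB32, which acts with RAB38 in delivering cargo to lysosome-related organelles, stood at 45.4, 41.1 and 45.9 CPM in controls 1, 3 and 5 and at 37.7, 36.1 and 35.6 CPM in Sam68 siRNA libraries 1, 2 and 3. All knockdown levels lay below all controls. Its mean fell from 44.2 ± 2.63 to 36.4 ± 1.10 CPM (0.825-fold, log2 fold change -0.28, SE 0.07, edgeR adjusted p = 0.0224). The adjusted p was 0.0201 to 0.135 over the alternatives, and the call was lost without control 1 or Sam68 siRNA replicate 2 or 3, at log2 fold changes of -0.26, -0.28 and -0.27. In the authors' deposited table its log2 fold change was -0.27 with an FDR of 0.0754.

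RAB38 lay on the other side. It stood at 125, 127 and 114 CPM in the controls and 131, 139 and 139 CPM after knockdown, without overlap and without passing the test (log2 fold change 0.16, edgeR adjusted p = 0.0812). RAB7A, the main RAB of late endosomes, was at 0.02 (interval -0.11 to 0.15). Its distant relative RAB7B had 1.79, 2.07 and 1.95 CPM in the controls and 0.763, 1.45 and 1.27 CPM after knockdown, from 154 counts in all (log2 fold change -0.74, edgeR adjusted p = 0.0883). RAB24, known from autophagy, had 12.5, 11.1 and 10.9 CPM in the controls and 8.45, 9.96 and 9.69 CPM after knockdown (log2 fold change -0.30, edgeR adjusted p = 0.0900). RAB12, RAB9A and RAB29 stood at 0.10, -0.07 and -0.07.

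Among ER and Golgi RABs, 0 of 11 tested rose, 1 fell and 10 were not called (9.09% called, against 19.1% of all tested genes). Their median log2 fold change was -0.03. RAB1A, which with RAB1B governs transport from endoplasmic reticulum to Golgi, was the 1 that fell. It stood at 154, 151 and 161 CPM in controls 1, 3 and 5 and at 137, 133 and 134 CPM in Sam68 siRNA libraries 1, 2 and 3. The controls lay above all knockdown libraries, and the mean fell from 155 ± 5.36 to 135 ± 2.27 CPM (0.866-fold, log2 fold change -0.21, SE 0.05, edgeR adjusted p = 0.0171). It was not called on log2 TPM, nor without Sam68 siRNA replicate 2 or 3, and its adjusted p over all alternatives was 0.0149 to 0.202. RAB1A shares 150 of its 2447 exon bases with CEP68 on the other strand, which had 6.48% as many counts, and whether the counting used strand is not stated in the labels.

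RAB1B, the more abundant of the pair, had 338, 354 and 350 CPM in the controls and 379, 359 and 345 CPM after knockdown (log2 fold change 0.06, interval -0.07 to 0.18). RAB30 of the Golgi stood at 16.6, 16 and 13.4 CPM in the controls and 13.0, 12.6 and 13.2 CPM after knockdown, with a log2 fold change of -0.25 that was called without control 5 only (-0.34). RAB6A, RAB2A, RAB2B, RAB18, RAB43 and RAB33B stood at 0.02, 0.06, -0.10, -0.04, -0.02 and -0.03. RAB19 and RAB6B, with 156 and 47 counts in all, stood at 0.17 and -0.48. RAB43 shares most of its exon bases (84.55%) with the readthrough gene ISY1-RAB43, and its level is uncertain.

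Among RABs of exocytosis and polarised delivery, 1 of 11 tested rose, 0 fell and 10 were not called. Calls made up 9.09%, against 19.1% of all tested genes, and the median log2 fold change was 0.10. RAB3D, the RAB3 form known from secretory granules of exocrine and other non-neural cells, stood at 17.7, 18.9 and 16 CPM in controls 1, 3 and 5 and at 21.4, 22.3 and 25.5 CPM in Sam68 siRNA libraries 1, 2 and 3. Each knockdown library exceeded each control. The mean rose from 17.6 ± 1.46 to 23.1 ± 2.15 CPM (1.31-fold, log2 fold change 0.39, SE 0.10, edgeR adjusted p = 0.0165), and the adjusted p over the alternatives was 0.00961 to 0.0935, the call being lost without Sam68 siRNA replicate 2 or 3. RAB3D shares 144 of 4417 exon bases with TMEM205 on the same strand, which had 213% as many counts. It shares 77 with CCDC159 on the other strand, which had 10.7% as many. Summed over RAB3A, RAB3B, RAB3C and RAB3D the level was 14.4 ± 1.61 TPM in the controls and 19.0 ± 1.53 TPM after knockdown (n = 3 each), without overlap.

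The RAB27 pair is known for docking secretory granules and exosome-bearing endosomes, and neither member was called. RAB27B stood at 77.3, 81.6 and 69.8 CPM in the controls and 65.2, 66.4 and 67.8 CPM after knockdown (log2 fold change -0.20, edgeR adjusted p = 0.0761). Without control 5 it was called lower, at -0.26. RAB27A stood at 0.13 (interval -0.10 to 0.35). RAB8A and RAB8B, which act in delivery to the basolateral membrane and cilium, were at 0.15 and -0.05, RAB10 and RAB13 at 0.06 and -0.03, and RAB26 at 0.10. RAB3A, RAB3B and RAB37 had log2 fold changes of 0.38, 0.30 and -0.30, with intervals that reached past 0.5.

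Of the 6 remaining RABs, 1 rose and 5 were not called (16.7% called, against 19.1% of all tested genes). RAB42, a little-studied member, had 14.5, 11.6 and 13.0 CPM in controls 1, 3 and 5 and 19.4, 16.9 and 15.3 CPM in Sam68 siRNA libraries 1, 2 and 3. The groups did not overlap, though the highest control and the lowest knockdown library lay close. The mean rose from 13.0 ± 1.47 to 17.2 ± 2.096 CPM (1.32-fold, log2 fold change 0.40, SE 0.12, edgeR adjusted p = 0.0349). The adjusted p over the alternatives was 0.0225 to 0.142, and the call was lost without control 3 or Sam68 siRNA replicate 1 or 2. RAB42 lies within the span of TAF12 on the other strand, which had 241% as many counts, although no exon base is shared. RAB23 and RAB28, known from cilia, stood at -0.05 and 0.19, and RAB40A, RAB40B and RAB40C, which carry a SOCS box, at -0.11, 0.23 and 0.04. RAB23 shares 57.7% of its exon bases with BAG2 on the other strand, which had more counts, so its level is uncertain.

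The balance between closely related RABs was compared inside each library as a log2 ratio of RPKM, which does not depend on library scaling. Of 19 pairs within 14 groups of related genes, the ratio did not overlap between groups in 7 (for levels of single genes, groups did not overlap in 38% of all tested genes), each with an exact two-sided permutation p of 0.1, the smallest possible, and 0.271 after adjustment over the 19 pairs. The signs of the log2 fold changes differed in 12 of the 19. Some pairs share a gene, and some genes lay near 0, such as RAB5C and RAB7A, both at 0.02. The sign itself changed in some alternative for 20 of the tested members, so this count carries little weight. Besides RAB34/RAB36, the 7 pairs without overlap were RAB32/RAB38, RAB1A/RAB1B, RAB5B/RAB5C, RAB11A/RAB25, RAB27A/RAB27B and RAB7A/RAB7B.

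RAB32 mRNA stood at 0.487 of RAB38 mRNA in the controls and 0.360 after knockdown, with log2 ratios of -1.03, -1.198 and -0.89 against -1.37, -1.52 and -1.54. RAB1A stood at 0.263 of RAB1B in the controls and 0.219 after knockdown. The RAB27A to RAB27B ratio went from 0.294 to 0.368, and that of RAB5B to RAB5C from 0.259 to 0.225. With 3 libraries per group the exact test could not reach 0.05 for any pair, so it decides nothing about these differences. In summed level, RAB32 with RAB38 came to 370 ± 23.6 and 379 ± 4.76 TPM, and RAB1A with RAB1B to 657 ± 22.8 and 663 ± 33.0 TPM (SD, n = 3 each), with overlap in both. Of the 14 group sums, that of the RAB3 genes alone did not overlap.

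**Figure D4:**
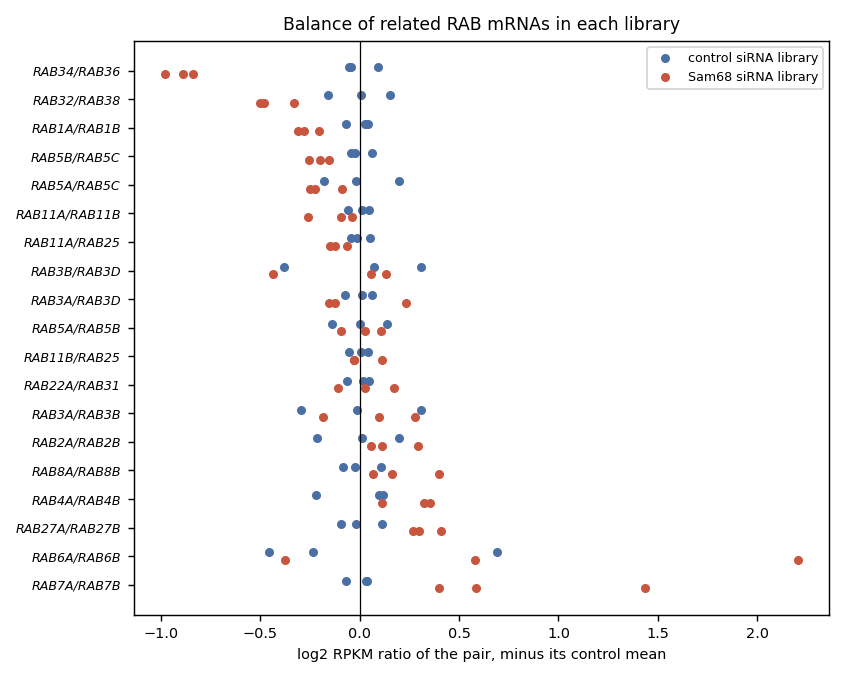
Log2 RPKM ratio of each of 19 pairs of related RAB genes in each library, minus the mean of the 3 controls. RAB34/RAB36 lies lower after knockdown, with a mean difference of -0.90, and RAB27A/RAB27B higher, with 0.32. The wide scatter of RAB6A/RAB6B stands beside 47 counts of RAB6B in all.

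Genes that handle RABs were counted from lists of prenylation and GDI genes, exchange factors, GTPase-activating proteins and effectors. Prenylation and GDI genes held the largest rise. Of 10 tested, 3 rose, 1 fell and 6 were not called, against 9.33% and 9.76% of all tested genes that rose and fell. CHML, the RAB escort protein REP-2, stood at 17.5, 18.5 and 16.95 CPM in controls 1, 3 and 5 and at 31.5, 27.9 and 32.7 CPM in Sam68 siRNA libraries 1, 2 and 3. Its mean rose from 17.6 ± 0.783 to 30.7 ± 2.49 CPM (log2 fold change 0.80, SE 0.09, edgeR adjusted p = 0.000184). Its relative CHM, the escort protein REP-1, was at 0.09 (interval -0.14 to 0.33) and was not called. CHML shares 373 exon bases (4.91%) with OPN3 on the same strand, which had more counts.

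GDI2, the broadly expressed GDI, rose from 329 ± 6.35 to 382 ± 6.11 CPM (log2 fold change 0.22). The prenylated RAB acceptor RABAC1 changed by -0.26 and PRAF2 of the same family by 0.43, both past the threshold. The catalytic subunits RABGGTA and RABGGTB of the RAB geranylgeranyl transferase stood at -0.01 and -0.11, neither called. Without Sam68 siRNA replicate 2 or 3, 1 gene of this list rose and 0 fell. GCAGTAC lay in the coding sequence of CHML and the 3′ UTR of GDI2. Among called genes of the other 3 lists below, it lay in the coding sequence of RMC1, TBC1D8, TBC1D4, APPL2 and RUFY2, which rose. TBC1D4 held it in the 3′ UTR as well. Among genes that fell, it lay in the coding sequence of GCC2, ANKFY1 and GOLGA2 and in the 3′ UTR of DENND5B and GCC2. Of all tested genes searched, 12.4% held it in coding sequence and 4.68% in the 3′ UTR. The heptamer ACTGATT lay in the 3′ UTR of TRAPPC4, DENND5B, TBC1D8B and ANKFY1, which fell, and of RBSN, which rose. It lay in the coding sequence of SYTL2 and GOLGB1, which fell. Shares over all tested genes searched were 13.8% in the 3′ UTR and 7.11% in coding sequence. Matches in listed genes that were not called are not given here, so no share of the lists can be set beside these.

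Of 52 exchange factors 1 rose, 8 fell and 43 were not called (17.3% called, near the 19.1% of all tested genes). Their median log2 fold change was -0.06. Values were negative in 39 of the 52, against 6265 of all 12351 tested genes. AVL9, a DENN domain protein of the late secretory pathway, fell from 59.6 ± 2.65 to 40.3 ± 2.04 CPM, a log2 fold change of -0.57 (n = 3 each). DENND2C of the DENND2 family fell by 0.62, and the TRAPP complex subunits TRAPPC4 and TRAPPC6A changed by -0.40 and -0.52. The number of exchange factors that fell was 3 without Sam68 siRNA replicate 2 or 3, and 5 without control 3. TRAPPC4 shares 15.2% of its exon bases with SLC37A4 on the other strand and is uncertain.

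Of 38 GTPase-activating proteins 2 rose, 3 fell and 33 were not called, with a median of -0.05. The share called was 13.2%, against 19.1% of all tested genes. TBC1D8B fell from 14.8 ± 0.995 to 9.73 ± 0.920 CPM, a log2 fold change of -0.60 (n = 3 each). TBC1D2, which acts on RAB7, and RABGAP1L changed by -0.33 and -0.32, and TBC1D8 rose by 0.31. Without Sam68 siRNA replicate 2, 1 rose and 1 fell, and with any other library left out 0 or 1 rose.

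Of 64 effectors 4 rose, 13 fell and 47 were not called, with a median of -0.07. Values were negative in 42 of the 64, against 6265 of all 12351 tested genes. The share called was 26.6%, against the 19.1% of all tested genes. The RAB27-binding synaptotagmin-like proteins SYTL3 and SYTL2 fell, while SYTL1 and SYTL4 of the same family, at -0.22 and 0.15, were not called. SYTL3 went from 40.8 ± 0.569 to 26.3 ± 0.962 CPM, and SYTL2 from 91.6 ± 3.36 to 67.4 ± 4.39 CPM (n = 3 each). RAB11FIP1, the RAB11 effector also known as RCP, fell from 109 ± 4.72 to 79.9 ± 3.88 CPM (log2 fold change -0.45). KIF20A, a RAB6-binding kinesin best known for cytokinesis, rose by 0.68, and shares 68 exon bases with CDC23 on the other strand. RUSC2, named here after its value was seen, had the largest change of the list, from 6.61 ± 1.76 to 3.09 ± 0.220 CPM (log2 fold change -1.09). Without Sam68 siRNA replicates 2 and 3 in turn, 6 and 8 effectors fell, and without control 5, 7 rose.

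**Figure D5:**
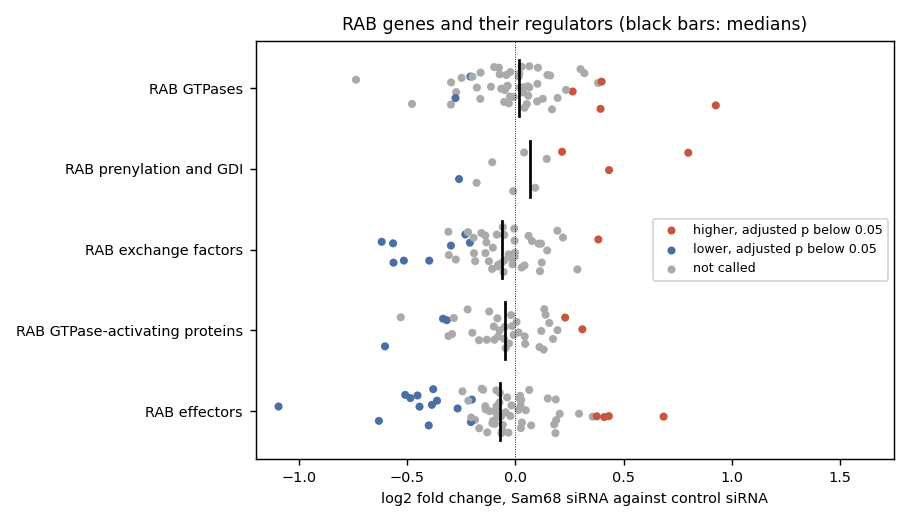
Log2 fold changes of the 54 tested RAB genes and of 4 lists of genes that act on or through them (each point a gene, red higher and blue lower at an adjusted p below 0.05, grey not called, black bars medians). RAB36 at 0.93 and CHML at 0.80 stand farthest to the right, and RUSC2 at -1.09 farthest to the left.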

How the data were processed

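The authors deposited, per the file headers, a total count for each gene, with RPKM and TPM values, a signal headed CPM whose columns sum to different totals (not used in a test), and their own comparison with a fold change, a log2 fold change and p-values, FDR included, whose test is not named. The genome build is hg38, per the submitters' processing notes, and aligner, counter and strand use were not given in the sources used here. Deposited counts went into edgeR 4.0.16 (R 4.3.3): filterByExpr (minimum count 10, minimum total 15), TMM scaling, and the robust quasi-likelihood F-test over all 12351 genes kept, with Benjamini-Hochberg adjustment and a threshold of 0.05. "Rose" and "fell" are used of calls only. The SE is the one the F statistic implies, and 95% intervals use its degrees of freedom. Within a gene, levels are in CPM after TMM scaling, and the authors' TPM or RPKM between genes. Every member called is named with its level in each library, other tested members with their log2 fold change, and of each list up to 4 called genes by smallest p. The members, role lists, regulator lists and heptamers were chosen with earlier results of these data known. Alternatives were DESeq2 1.42.0, voom from limma 3.58.1, scaling by RLE or upper quartile, no filter, at least 50 counts in 3 libraries, the replicate number as a block, limma-trend on log2 TPM with a pseudocount of 1 or 0.1 or with a mean TPM of at least 1, and each of the 6 libraries left out in turn. Heptamers were searched in 1 protein-coding transcript per gene from the basic set of GENCODE 29, a principal one where annotated and then the one with the longest 3′ UTR. Steps were tested on simulated data. Overlap of exons was read from the same annotation. Of the members, 23 overlap another gene of the table and 10 share an exon base with one. GENCODE 29 names 17 pseudogenes of RAB genes, among them 5 of RAB28, 5 of RAB9A and 1 of the called member RAB42. Such pseudogenes could share reads with their parents. A few results on single genes are not reported here.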

Additional observations from a re-analysis of the deposited data

How the results depend on the processing

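All 6 calls among the RAB genes held under RLE and upper-quartile scaling, DESeq2, limma-voom, no filter and the stricter filter. Under limma-trend on log2 TPM, with either pseudocount or the TPM filter, 4 rose and 1 fell. With the replicate number as a block, 1046 genes were called in place of 2358, 1 RAB gene rose (RAB36) and 0 fell. The numbers 5 and 2 each occur in 1 group only. Under the block, control 5 and Sam68 siRNA replicate 2 therefore add nothing to the fold changes, which rest on libraries 1 and 3 of each group. The same numbers tie no libraries together in the labels, and the correlation of same-numbered libraries' deviations was -0.0656 for number 1 and 0.077 for number 3. With 1 library left out, 1112 to 2666 genes were called, 1 to 4 RAB genes rose and 0 to 4 fell, their median log2 fold change was 0.0045 to 0.022, and KHDRBS1 stayed between -2.91 and -2.76. In the lists, the block left 1 prenylation or GDI gene higher and 0 lower, 0 exchange factors higher and 4 lower, 1 GTPase-activating protein higher and 1 lower, and 2 effectors higher and 6 lower. On log2 TPM with either pseudocount 4 exchange factors fell, 0 prenylation or GDI genes fell and 0 GTPase-activating proteins rose. With the TPM filter these were 4 exchange factors and 0 GTPase-activating proteins, and by DESeq2 1 GTPase-activating protein rose. With 1 library left out, prenylation and GDI genes that rose numbered 1 to 2 and that fell 0 to 2, exchange factors 0 to 1 and 3 to 9, GTPase-activating proteins 0 to 1 and 1 to 4, and effectors 3 to 7 and 6 to 13. Apart from the libraries that the block sets aside, the cause of these shifts was not tested.

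The sign changed in some alternative for 20 of the 54 tested RAB genes, none of them called. Under the block, which rests on libraries 1 and 3 of each group, the values were 0.14 for RAB6B, 0.044 for RAB2B, 0.058 for RAB8B, -0.015 for RAB6A, 0.0053 for RAB22A. With 1 library left out, the log2 fold changes ran from -0.047 to 0.48 for RAB19, -0.16 to 0.013 for RAB29, -0.027 to 0.0997 for RAB40C, -0.30 to 0.14 for RAB40A, -0.16 to 0.032 for RAB23, -0.086 to 0.0064 for RAB13. They ran from -0.021 to 0.044 for RAB7A, -0.071 to 0.072 for RAB5C, -0.0055 to 0.094 for RAB20, -0.11 to 0.023 for RAB21, -0.083 to 0.0605 for RAB43, -0.11 to 0.048 for RAB33B. Ranges were also -0.041 to 0.011 for RAB22A, -0.18 to 0.0097 for RAB2B, -0.024 to 0.0698 for RAB6A, -0.17 to 0.056 for RAB9A, -0.081 to 0.016 for RAB18, -0.017 to 0.072 for RAB35. Last came -0.11 to 0.035 for RAB8B. Few counts leave RAB7B, RAB3A, RAB3B, RAB37, RAB6B, RAB19 and RAB40A with intervals that reach past 0.5 in log2.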

Other observations

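In the authors' deposited table, 55 of the 63 RAB genes have an FDR for the comparison. At an FDR below 0.05 it lists RAB36, RAB14, RAB3D and RAB42 as higher and RAB1A as lower. The log2 fold changes there are 0.93, 0.27, 0.40, 0.40 and -0.20.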
